A study of Mus musculus with 9 samples.

Results

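The genes of the endocannabinoid system of the mouse striatum were examined in 8 members, chosen by symbol: the receptor gene Cnr1, its partner Cnrip1, the synthetic enzymes Dagla, Daglb and Napepld, and the degrading enzymes Mgll, Abhd6 and Faah. All 8 were found by their Ensembl identifier among the 44886 genes in the count files, and all 8 had enough counts to be tested. According to the labels and methods, the striatum was dissected from 9 embryos at E17.5, each giving 1 library of poly(A)-selected RNA. Of these embryos, 3 were labelled Control, 3 were labelled Islet1Cre;Ebf1fl/-, and 3 were labelled Dlx5/6::Cre;Ebf1fl/-. The mutants carry a null and a floxed allele of Ebf1, a transcription factor of neurons of the direct pathway. Islet1Cre deletes the floxed allele in spiny projection neurons of the direct pathway (dSPN) and in cholinergic interneurons. Dlx5/6::Cre deletes it in spiny projection neurons (SPN) of both pathways and in interneurons at large. The study used heterozygous embryos as controls, and the labels do not say which alleles each control carried. All samples are labelled C57BL/6, but the methods place the Islet1Cre line on B6D2F1/J, so that strain and Cre line cannot be told apart.

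Endocannabinoids are lipid messengers that neurons make on demand from membrane lipids. In the mature striatum, SPN release 2-arachidonoylglycerol from their dendrites, and it acts on CB1 receptors of incoming axons to lower transmitter release. CB1 is also made by SPN themselves and is carried to their axon terminals in the globus pallidus and substantia nigra, and before birth it is found on growing axons. Diacylglycerol lipases make 2-arachidonoylglycerol, NAPE-PLD makes anandamide, and monoacylglycerol lipase, ABHD6 and FAAH remove these messengers.

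Cnr1 is the member with the lowest unadjusted p value below, and its promoter windows are shown because Ebf1 binds DNA directly at a motif built around CCCNNGGG. The windows were taken from RefSeq on GRCm38.p6, from 250 bases before to 50 bases after each annotated start site, and the first 2 of the 3 Cnr1 windows contain this pattern, which is its own reverse complement, with the match printed in capitals.
Cnr1, first start, chr4:33924014-33924313, plus strand: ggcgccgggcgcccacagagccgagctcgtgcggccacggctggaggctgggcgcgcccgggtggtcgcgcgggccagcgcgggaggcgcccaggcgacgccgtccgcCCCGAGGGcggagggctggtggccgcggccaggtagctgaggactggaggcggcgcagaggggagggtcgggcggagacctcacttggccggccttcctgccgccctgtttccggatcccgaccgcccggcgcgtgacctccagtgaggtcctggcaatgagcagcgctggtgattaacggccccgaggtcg
Cnr1, second start, chr4:33924394-33924693, plus strand: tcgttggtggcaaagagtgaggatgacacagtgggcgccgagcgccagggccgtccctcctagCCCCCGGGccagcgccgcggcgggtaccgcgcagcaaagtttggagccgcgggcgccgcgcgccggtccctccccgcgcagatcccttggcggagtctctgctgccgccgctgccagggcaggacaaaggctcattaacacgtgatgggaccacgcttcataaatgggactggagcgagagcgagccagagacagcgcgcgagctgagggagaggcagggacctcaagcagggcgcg
In the first window the match began at position -142 from the start site, and in the second at -187. These letters were found in 3 of the 11 windows that cover 7 of the 8 members, in Cnr1 and Mgll, against 13.7% of all 32851 mouse windows of the same length. Counted by gene, as Cnr1 has several windows, this was 2 of the 7 members against 15.4% of 27025 genes. The longer form, with a T before and an A after these letters, was found in none of the 11, against 0.904% of all windows. Dagla has no entry in this set. A match of letters is not a binding site, and binding was not examined here.

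Counts on genes totalled 16.5 to 41.5 M per embryo, with the smallest total in Islet1Cre replicate 3. The Dlx5/6::Cre replicate 1 library stood apart, with summed normalized counts of 6 progenitor markers, Mki67 and Gsx2 among them, of 11886 against 2035 to 3420 in the other 8 embryos, and of 7 cortical excitatory markers, among them Tbr1 and Neurod6, of 6071 against 998 to 3080. Control replicate 3 (Xist 12074, Y-linked sum 295) and Islet1Cre replicate 3 (Xist 7270, Y-linked sum 2450) held both Xist and transcripts of Y-linked genes. Whether each of these libraries holds RNA of a single embryo was not tested. Control replicate 2 was the only library with almost no Xist (3.27), with a summed normalized count of 3800 over 4 Y-linked genes. The Dlx5/6::Cre mutants had Xist from 10791 to 14766 and Y-linked sums of 0 to 0.815. Sex was thus not balanced between the groups, and its part in the changes was not tested. SPN markers such as Bcl11b and Ppp1r1b were abundant in every library, with sums between 95037 and 116892 over 8 genes. Ebf1 itself was not lower in the mutants by its count over the whole gene, with log2 fold changes over control of 0.41 and 0.33, so its count does not check the genotypes. The study identified genotypes by PCR and, by immunostaining at E17.5, found no Ebf1 protein in the striatum of either mutant. Embryo codes in the labels begin with IE in 2 controls and in all Islet1Cre mutants, and with D in control replicate 3 and all Dlx5/6::Cre mutants. What the codes stand for is not given. With control 3 or Islet1Cre replicate 3 left out, as with any other single embryo, edgeR called no member in any comparison.

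In control striatum the receptor and its partner were the most abundant transcripts of the set. Levels per length (TPM) were computed by dividing counts by the exon length of each gene and scaling every library to the same total. Cnrip1 and Cnr1 led with 43.8 ± 4.60 and 39.0 ± 8.88 TPM (SD, n = 3), followed by Dagla with 30.7 ± 3.24, Abhd6 with 22.5 ± 1.63 and Mgll with 17.6 ± 3.38. Daglb had 7.41 ± 0.666, Faah 4.96 ± 0.446 and Napepld 1.67 ± 0.426 TPM. Neighbours in this order overlapped between embryos for Cnrip1 and Cnr1, for Cnr1 and Dagla, and for Abhd6 and Mgll, whereas Dagla and Abhd6, Mgll and Daglb, Daglb and Faah, and Faah and Napepld did not overlap. Cnr1 lay above 71.1% of the genes tested in controls, Cnrip1 above 74.0%, and Napepld, the anandamide-forming enzyme, above 16.6%. In transcript level the 2-arachidonoylglycerol enzymes Dagla, Abhd6 and Mgll thus stood above the anandamide enzymes Faah and Napepld in every embryo. This did not hold for Daglb, which also forms 2-arachidonoylglycerol. In Dlx5/6::Cre mutants it overlapped Faah, at 6.65 to 7.24 against 4.62 to 7.64 TPM. This overlap is stated only for the length over all exons. By the longest transcript, the means in these mutants were 10.6 TPM for Daglb and 6.72 TPM for Faah.

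**Figure D1:**
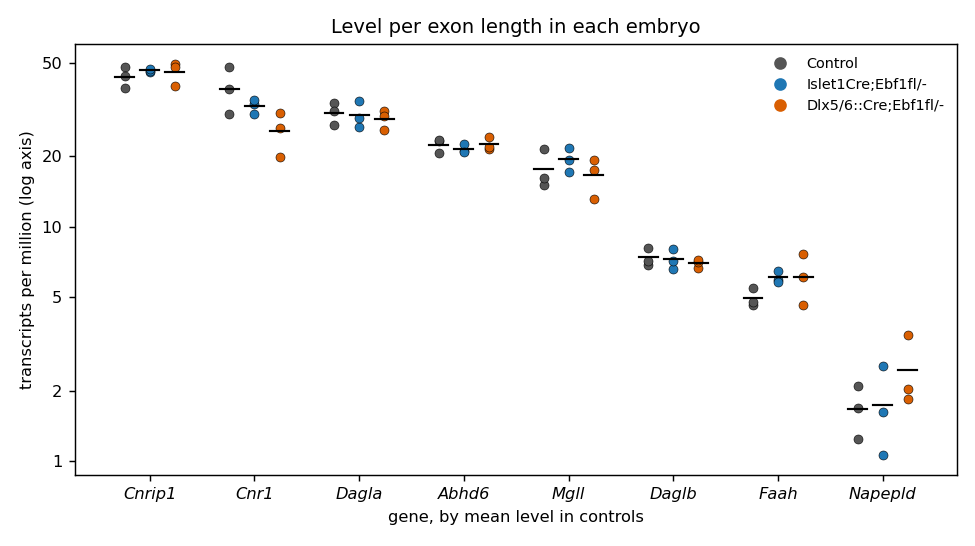
Level of each gene per exon length in TPM, on a log axis, with genes ordered by their mean in controls. Each point is an embryo and each bar the mean of 3 embryos. Cnrip1 and Cnr1 lead in controls at 43.8 and 39.0 TPM, and Napepld is lowest at 1.67 TPM.

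The same order held in the Islet1Cre mutants, where Cnr1 had 32.9 ± 2.24 TPM and Dagla 30.1 ± 3.99 TPM, with overlapping embryos. In the Dlx5/6::Cre mutants Dagla, at 28.9 ± 2.77 TPM, had a higher mean level than Cnr1 at 25.7 ± 5.36 TPM, again with overlapping embryos. In the latter group Cnr1 lay above 61.4% of the genes tested. Levels depend on the length used: with the longest transcript in place of all exons, Daglb had 11.3 and Cnrip1 63.1 TPM in controls, with the same order of the 8 genes there.

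Cnr1 encodes CB1, the main cannabinoid receptor of the brain. Its normalized read count was 2297, 2884 and 1815 in controls 1 to 3. It was 1911, 1850 and 2012 in the Islet1Cre mutants. In the Dlx5/6::Cre mutants it was 1185, 1567 and 1873. The Islet1Cre mutants lay close together within the range of the controls, while 2 of the 3 Dlx5/6::Cre mutants lay below every control and the other lay above control 3. The means were 2332 ± 535 in controls, 1924 ± 81.9 in Islet1Cre mutants and 1542 ± 345 in Dlx5/6::Cre mutants (SD, n = 3). Over control, edgeR fitted a log2 fold change of -0.28 for the Islet1Cre mutants, with a 95% interval from -0.67 to 0.11 and an adjusted p of 0.870. It was -0.60 (95% interval -0.99 to -0.21) in the Dlx5/6::Cre mutants, with an unadjusted p of 0.00626 and an adjusted p of 0.126, which misses the threshold of 0.05. The Cnr1 level was therefore not called different in either genotype. In whole tissue, fewer cells of a type and less RNA per cell cannot be told apart.

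Cnrip1 encodes a protein that binds the intracellular tail of CB1. Its normalized count was 1442, 1798 and 1646 in controls, 1779, 1601 and 1700 in Islet1Cre mutants, and 1470, 1829 and 1837 in Dlx5/6::Cre mutants. The groups overlapped throughout. In Islet1Cre mutants its log2 fold change was 0.05, with a 95% interval from -0.19 to 0.29. In Dlx5/6::Cre mutants it was 0.07, with a 95% interval from -0.16 to 0.31. Cnrip1 lies on chromosome 11, as Ebf1 does, 27.5 Mb away from it.

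The ratio of Cnrip1 to Cnr1 levels per length was 1.01, 1.00 and 1.46 in controls, and 1.5, 1.39 and 1.36 in Islet1Cre mutants. It was 2.00, 1.88 and 1.58 in Dlx5/6::Cre mutants, all of which lay above all controls, whereas the Islet1Cre mutants overlapped them. With 3 embryos a group an exact two-sided permutation test cannot go below 0.1, so this ratio is given as a description. Of 4 ratios between members computed, the other 3 overlapped between both mutants and the controls, and the share of such separation over ratios of other genes was not computed. Control 3, at 1.46, was the only control with the code D of the Dlx5/6::Cre mutants.

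Dagla and Daglb encode the diacylglycerol lipases that form 2-arachidonoylglycerol. Dagla, the main isoform of mature synapses, had normalized counts of 1445, 1804 and 1666 in controls. The counts were 1494, 1704 and 1494 in Islet1Cre mutants, and 1368, 1642 and 1626 in Dlx5/6::Cre mutants. Both mutant groups overlapped the controls. The log2 fold changes of Dagla were -0.07 (95% interval -0.30 to 0.17) and -0.08 (95% interval -0.32 to 0.15), with adjusted p of 0.999 and 0.740 by edgeR. Daglb had 721, 615 and 639 in controls, 616, 591 and 691 in Islet1Cre mutants, and 586, 623 and 658 in Dlx5/6::Cre mutants. Its log2 fold changes were -0.06 (95% interval -0.30 to 0.17) and -0.08 (95% interval -0.32 to 0.15), and its groups overlapped. Daglb shares 2309 exon bases, 24.1% of its exons, with Rac1 on the opposite strand. The libraries were made with a strand-specific kit, but whether reads were counted by strand is not stated, so the counts of Daglb are uncertain.

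Napepld encodes the phospholipase that releases anandamide and related N-acylethanolamines. Its normalized counts were low, at 45.2, 62.1 and 77 in controls, 40.8, 86.6 and 57.3 in Islet1Cre mutants, and 126, 73.8 and 69.3 in Dlx5/6::Cre mutants. The highest value was that of Dlx5/6::Cre replicate 1, the library rich in progenitor markers, and the groups overlapped. The log2 fold change was 0.03 (95% interval -0.73 to 0.79) in Islet1Cre mutants. In Dlx5/6::Cre mutants edgeR gave 0.54 (95% interval -0.20 to 1.29) with an adjusted p of 0.471, and 0.22 without replicate 1. Of the members it had the fewest reads, 30 to 122 per embryo, and the widest intervals.

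Mgll encodes monoacylglycerol lipase, which breaks down most 2-arachidonoylglycerol in the adult brain. It had normalized counts of 708, 768 and 1014 in controls, 851, 952 and 875 in Islet1Cre mutants, and 617, 899 and 843 in Dlx5/6::Cre mutants. Control 3 was the highest embryo and Dlx5/6::Cre replicate 1 the lowest, and the groups overlapped. The log2 fold changes were 0.10 (95% interval -0.25 to 0.46) and -0.08 (95% interval -0.43 to 0.28). Abhd6, a second hydrolase of 2-arachidonoylglycerol that faces the cytosol, was the least variable member, with a coefficient of variation of 6.41% over the 9 embryos. Its counts ran from 442 in Islet1Cre replicate 3 to 527 in Dlx5/6::Cre replicate 2, with log2 fold changes of -0.10 (95% interval -0.34 to 0.14) and 0.01 (95% interval -0.23 to 0.24). The ratio of Mgll to Abhd6 per length was 0.781 ± 0.117 in controls, 0.901 ± 0.0761 in Islet1Cre mutants and 0.735 ± 0.106 in Dlx5/6::Cre mutants, with overlapping embryos. The ratio of Mgll to Dagla, of removal to synthesis, was 0.575 ± 0.105, 0.647 ± 0.0153 and 0.573 ± 0.0557 in the same groups, also with overlap.

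Faah encodes the hydrolase that inactivates anandamide. Its normalized count was 395, 338 and 348 in controls and 451, 438 and 410 in Islet1Cre mutants, so that every Islet1Cre mutant lay above every control, a separation of groups that 15.1% of the genes tested showed in either direction. The Dlx5/6::Cre mutants had 334, 549 and 454, and replicate 1 lay just below the lowest control. The means were 361 ± 30.5, 433 ± 21.1 and 446 ± 108 in the respective groups. By edgeR, Faah had a log2 fold change of 0.26 in Islet1Cre mutants, with a 95% interval from -0.11 to 0.64. Its value was 0.31 in Dlx5/6::Cre mutants, with a 95% interval from -0.06 to 0.68. Neither passed the threshold, at adjusted p of 0.881 and 0.406. In the Dlx5/6::Cre comparison the value was 0.47 (adjusted p = 0.0614) without Dlx5/6::Cre replicate 1 and 0.13 (adjusted p = 0.751) without replicate 2.

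**Figure D2:**
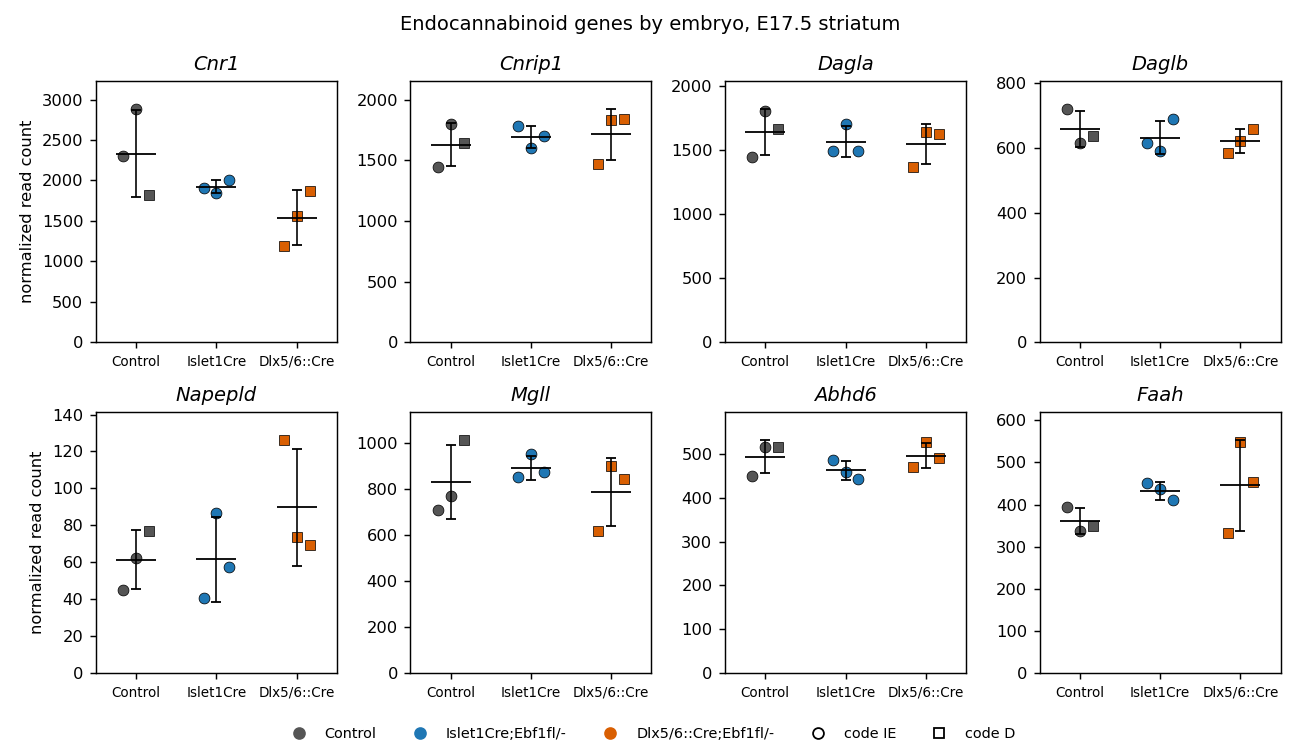
Normalized read count of each gene, in counts divided by size factors, for each embryo in each of the 3 genotypes. Circles are embryos with codes that begin with IE and squares those with D, and bars give the mean and SD of 3 embryos. Cnr1 in Dlx5/6::Cre mutants reaches from 1185 to 1873 against 1815 to 2884 in controls, and Faah in Islet1Cre mutants lies from 410 to 451, above all controls.

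Over all members, 0 of 8 passed the threshold of the edgeR test in Islet1Cre mutants, where 0.971% of the 16368 genes tested did. For Dlx5/6::Cre mutants the number was 0 of 8, against 2.39% of the genes tested. At an unadjusted p below 0.05 there was no member in the former comparison, where 7.93% of the genes tested passed, and 1 of 8, Cnr1, in the latter, where 15.5% did. DESeq2 called none in Islet1Cre mutants and Cnr1 in Dlx5/6::Cre mutants, where it called 5.33% of its 16128 genes. The median log2 fold change of the members was -0.02 in Islet1Cre mutants and -0.04 in Dlx5/6::Cre mutants, beside medians of 0.00 and 0.01 over all genes tested. In each comparison 4 members had positive and 4 had negative values. Faah in Islet1Cre mutants was the only member with groups that did not overlap, 1 of 8, and in Dlx5/6::Cre mutants there was none, where 20.9% had. Standard errors were 0.11 for Dagla, Daglb, Abhd6 and Cnrip1, 0.16 to 0.18 for Cnr1, Mgll and Faah, and 0.34 for Napepld. Even changes of several standard errors could be missed at this depth and number of embryos. Cnr1 in Dlx5/6::Cre mutants, at -0.60 with a standard error of 0.18, was not called. Both comparisons use the same 3 controls and are therefore not independent of each other.

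**Figure D3:**
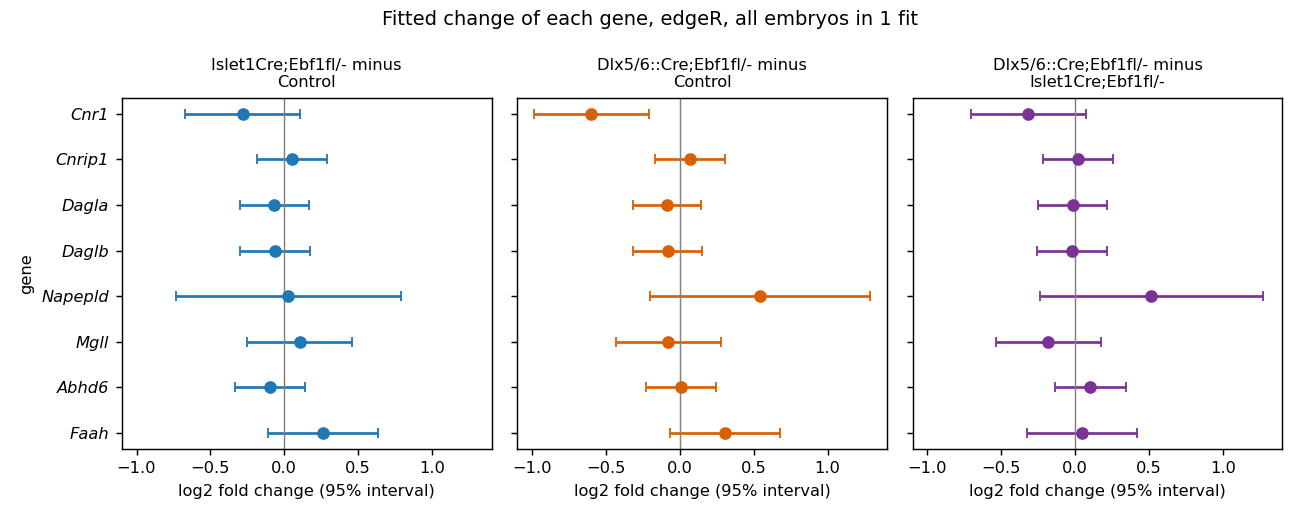
Log2 fold change of each gene with its 95% interval in the 3 comparisons, from the edgeR fit of all 9 embryos. Only the interval of Cnr1 in Dlx5/6::Cre mutants against controls, -0.99 to -0.21, lies wholly on one side of 0, and its adjusted p of 0.126 misses the threshold.

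The direct comparison of the mutants asks whether deletion in all SPN differs from deletion in dSPN and cholinergic interneurons. The study reports that Ebf1 is scarce in SPN of the indirect pathway and absent from striatal interneurons. It used both Cre lines to find effects that they share. No member was called, and 0.0% of the 16368 genes tested were called by edgeR, with 844 (5.16%) at an unadjusted p below 0.05, none of them a member. DESeq2 called 18 genes and no member. Cnr1 had a log2 difference of -0.32 (95% interval -0.71 to 0.08, adjusted p = 0.868) between Dlx5/6::Cre and Islet1Cre mutants. All Islet1Cre mutants have the code IE and all Dlx5/6::Cre mutants the code D, so that code and genotype cannot be told apart here, and with the code as a covariate, set by the controls alone, the difference of Cnr1 turned to 0.20 (95% interval -0.41 to 0.81). Faah differed by 0.04 (95% interval -0.33 to 0.42), Mgll by -0.18 (95% interval -0.54 to 0.17) and Napepld by 0.52 (95% interval -0.24 to 1.27). Without Dlx5/6::Cre replicate 1 the difference was -0.04 for Mgll and 0.18 for Napepld, and that of Mgll reached -0.29 without Dlx5/6::Cre replicate 2. That of Napepld was 0.29 without Islet1Cre replicate 1 and 0.88 without Islet1Cre replicate 2. With the code as a covariate, Mgll had -0.64 and Napepld 0.00. The other members differed by -0.02 to 0.10, and all intervals of the 8 members in the fit of all embryos contain 0.

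How Cnr1 was called depended on the processing. In Dlx5/6::Cre mutants its log2 fold change was -0.60 by DESeq2, with an adjusted p of 0.0271, and -0.60 by edgeR without a filter on low counts, with an adjusted p of 0.0183, where 2.67% of 26563 genes were called. With the filter it was not called by edgeR. Leaving out single embryos moved it between -0.77 and -0.42, with adjusted p from 0.0844 to 0.300, so no embryo alone carried its sign. With the embryo code as a covariate it was -0.23 (adjusted p = 0.917), and among embryos with the code D alone, with a single control, -0.24. Both values rest on control 3, the only control with the code D, a library that held both Xist and Y-linked transcripts. Code and genotype overlap too far here to be told apart. In Islet1Cre mutants the value was -0.43 (adjusted p = 0.160) among embryos with the code IE, where the controls had 2297 and 2884 and all mutants lay below both. Without control 2, the embryo with the highest Cnr1 and the only one with almost no Xist, it was -0.10 (adjusted p = 0.989).

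**Figure D4:**
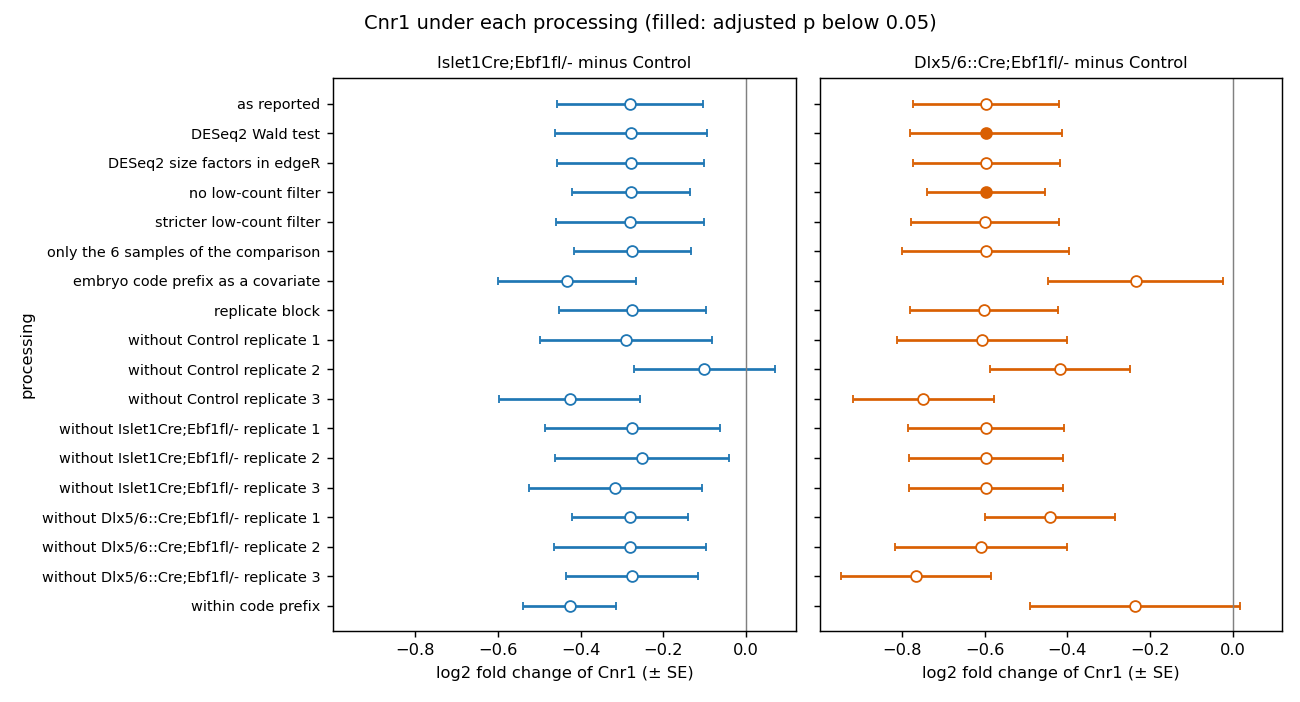
Log2 fold change of Cnr1 over controls, with its standard error, as reported and under each other processing, for both mutants. Filled points have an adjusted p below 0.05. All values are negative, the 2 filled points are DESeq2 and edgeR without a filter in Dlx5/6::Cre mutants, and the values with the embryo code taken into account, -0.23 and -0.24, are the nearest to 0 there.

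Summed counts of cell type markers also differed between the groups, and such sums do not measure numbers of cells. The summed normalized count of 8 dSPN markers was 34264 to 37396 in controls, 21986 to 27043 in Islet1Cre mutants and 15478 to 18924 in Dlx5/6::Cre mutants, without overlap with the controls. By counting cells at E17.5, the study found the overall shares of direct and indirect SPN preserved in the mutants. It reports Zfp521 and Plxnd1, both among these markers, as deregulated without Ebf1. In this list edgeR called Zfp521 and Plxnd1 lower in Islet1Cre mutants, and Zfp521, Plxnd1 and Chrm4 lower in Dlx5/6::Cre mutants, while Drd1, the dopamine receptor that defines dSPN, had 832 to 1830 in controls, 2107 to 2438 in Islet1Cre mutants and 1728 to 2273 in Dlx5/6::Cre mutants. Of 8 markers of SPN in general, edgeR called Pde10a (log2 fold change -0.71, adjusted p = 0.0206) and Foxp1 (-0.53, adjusted p = 0.0305) lower in Dlx5/6::Cre mutants and none in Islet1Cre mutants, while the sum of the list overlapped between groups. Slc1a2, a glutamate transporter gene of astrocytes and radial glia, was called higher in Dlx5/6::Cre mutants (0.48, adjusted p = 0.0356), as 1 of the 4 tested genes of its list. Over all genes tested, edgeR called 0.971% in Islet1Cre mutants and 2.39% in Dlx5/6::Cre mutants. The sum of 8 interneuron markers, Sst and Npy among them, was 11210 to 13284 in controls and 6840 to 10374 in Dlx5/6::Cre mutants. The sum of 7 cortical excitatory markers was 2609 to 6071 in Dlx5/6::Cre mutants against 1064 to 2544 in controls. The sum of 6 iSPN markers overlapped between groups, at 15144 to 17258 in controls and 16747 to 19887 in Dlx5/6::Cre mutants. For 6 progenitor markers the sum was 2911 to 3420 in Islet1Cre mutants, above controls at 2035 to 2890, with overlap in Dlx5/6::Cre mutants. For 5 microglia markers it was 2372 to 2558 in Dlx5/6::Cre mutants, above controls at 2149 to 2363, with overlap in Islet1Cre mutants. How often sums of other genes separate in this way was not computed. No marker of any of these lists was at 0 in all embryos, and the part of these cell types in the level of Cnr1 was not tested. In Dlx5/6::Cre replicate 1, with the most progenitor and cortical transcripts, Cnr1 was the lowest of all embryos. Without this library the log2 fold change of Cnr1 was -0.44 (95% interval -0.79 to -0.10, adjusted p = 0.176).

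By a count made after the values were seen, that library was also the lowest of the 9 embryos for 5 of the 8 members, Cnr1, Dagla, Daglb, Mgll and Faah, and the highest for Napepld. It was the lowest for 21.7% and the highest for 22.9% of all genes tested.

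Of 46 further genes of the pathway, listed with earlier results of these data known, 37 were tested. In each comparison with the controls, 1 of the 37 was called. Of all genes tested, 0.971% were called in Islet1Cre mutants and 2.39% in Dlx5/6::Cre mutants. The pathway gene called was Chrm3, which encodes the M3 muscarinic receptor, a receptor that activates phospholipase C and so supplies diacylglycerol for the lipases. Its normalized count was 72.4, 89.0 and 69.3 in controls, 794, 566 and 607 in Islet1Cre mutants, and 501, 667 and 755 in Dlx5/6::Cre mutants. All mutants lay far above all controls. By edgeR, the log2 fold change of Chrm3 was 3.08 in Islet1Cre mutants (adjusted p = 0.000197) and 3.05 in Dlx5/6::Cre mutants (adjusted p = 0.000208). It was called under each alternative except among embryos with the code D, where 2 genes in all were called. No tested gene of the lists was called lower, and none was called between the mutants.

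Among the other genes of diacylglycerol supply, Grm5, the metabotropic glutamate receptor that drives endocannabinoid release in SPN, had 3954, 6233 and 6327 in controls. It had 8542, 7923 and 8625 in Islet1Cre mutants, and 6438, 9266 and 9654 in Dlx5/6::Cre mutants. All mutants lay above all controls, as in 15.1% and 20.9% of the genes tested in either direction. In Dlx5/6::Cre mutants, Chrm3 and Grm5 lay wholly above the controls and Homer2 wholly below, of the 11 genes of this list. In Islet1Cre mutants 4 of the 11 lay wholly above the controls and 0 wholly below. The log2 fold changes of Grm5 were 0.60 (adjusted p = 0.256) and 0.62 (adjusted p = 0.127), and this gene was named after its values were seen. Among genes of CB1 coupling and trafficking the lowest adjusted p was that of Gnai1, a subunit of the inhibitory G protein. Gnai1 had 794, 1188 and 1303 in controls, 1979, 1806 and 1636 in Islet1Cre mutants, and 1379, 2051 and 2056 in Dlx5/6::Cre mutants. Gnai1 was the only one of the 9 genes of this list with Islet1Cre mutants apart from the controls, and in Dlx5/6::Cre mutants it lay above them and Arrb2, a beta-arrestin gene, below, at the same shares over all genes. It had log2 fold changes of 0.72 (adjusted p = 0.149) and 0.74 (adjusted p = 0.0780), below the threshold only by DESeq2, without a filter on low counts, without Dlx5/6::Cre replicate 1, and in Islet1Cre mutants among embryos with the code IE.

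In the remaining lists nothing passed the test. The other cannabinoid-related receptors were near absent, with normalized counts of Cnr2, the CB2 gene, between 0.962 and 13 and none for Gpr18 and Gpr119 in any embryo, which allows up to 3 reads per library. The nuclear receptor Pparg had the lowest adjusted p there, 0.257, with 2.45 to 5.77 in controls and 7.80 to 21.7 in Islet1Cre mutants. In the list of other N-acylethanolamine synthesis it was Ptpn22, at 11.8 to 18.0 in controls and 5.4 to 7.34 in Dlx5/6::Cre mutants (adjusted p = 0.149 by edgeR). Of other hydrolysis and oxidation it was Naaa, an acid amidase of N-acylethanolamines (adjusted p = 0.551), and of lipid carriers Fabp7, the brain fatty acid binding protein of radial glia (adjusted p = 0.351), both in Dlx5/6::Cre mutants.

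**Figure D5:**
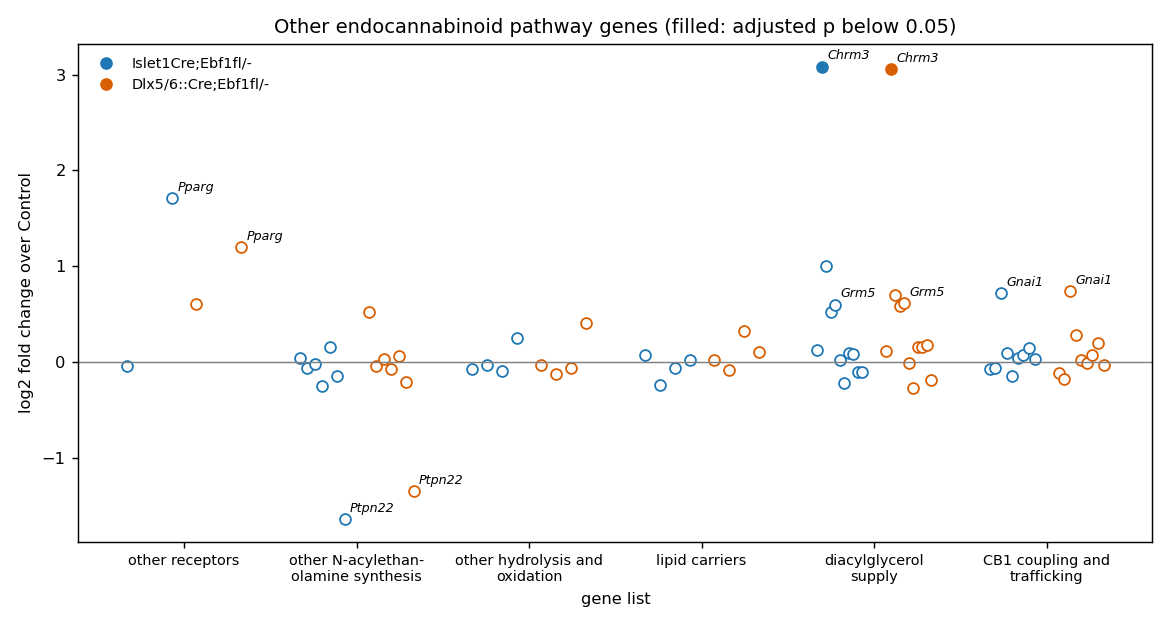
Log2 fold change over controls of the 37 tested genes of 6 further lists of the pathway, with blue for Islet1Cre mutants and orange for Dlx5/6::Cre mutants. Filled points have an adjusted p below 0.05 and are Chrm3 in both mutants, at 3.08 and 3.05.

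The genes most like each member were sought among 12050 other genes tested (12051 for Napepld, itself below the limit) with a mean normalized count of at least 100, by Pearson's r of log2 normalized counts over the 9 embryos, as a description. These embryos share their libraries and genotypes across all genes. Cnr1 was followed most closely by Pgbd5 (r = 0.969), Camk4 (r = 0.954) and Micall1 (r = 0.935). Camk4, a calcium-dependent kinase of neurons, had a log2 fold change of -0.51 in Dlx5/6::Cre mutants (adjusted p = 0.241 by edgeR). Pgbd5 had -0.21 and Micall1 -0.18 there, against -0.60 for Cnr1. These genes were picked for following Cnr1 over the same embryos, so a shared direction is built in. Cnrip1 was followed by Cxadr, Lrrn2 and Vps33a, each at r = 0.977 to 0.979. Dagla was closest to Fam210a, D130043K22Rik and Hid1 (r = 0.928 to 0.972), Daglb to Acer3, Gm6939 and Chac2 (r = 0.875 to 0.882), and Napepld to Bcl2, Rbpj and Foxn3 (r = 0.930 to 0.964). Mgll was closest to Jade2, Galt and Ube2q2 (r = 0.926 to 0.970), Abhd6 to Gskip, Fyn and Stc2 (r = 0.923 to 0.952), and Faah to Nt5e, Mcc and Gpr162 (r = 0.932 to 0.952). No gene in these lists of 3 passed the threshold in either comparison with the controls. Among the members themselves, r was between -0.68, for Cnr1 and Napepld, and 0.61, for Dagla and Mgll.

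By GENCODE M21 (GRCm38), all members are protein-coding genes. Cnr1 (ENSMUSG00000044288) spans chr4:33924593-33948831 on the plus strand, and Faah (ENSMUSG00000034171) lies on the same chromosome at chr4:115967145-116017926 on the minus strand. Daglb is at chr5:143464584-143505942, and Napepld at chr5:21662901-21701396. Dagla is at chr19:10245265-10304877, Mgll at chr6:88724412-88828360, Abhd6 at chr14:8002902-8056763 and Cnrip1 at chr11:17051586-17079371. Of windows of 75 bases in their transcripts, 0.0% of those of Cnr1, Dagla, Faah and Napepld also occurred in another gene, 0.383% of those of Mgll, 1.84% of Abhd6, 3.20% of Cnrip1 and 23.4% of Daglb.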

How the data were processed

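Striatal RNA of 9 embryos was sequenced by the authors, who deposited raw counts per Ensembl gene, 1 table per embryo. According to the methods, reads were filtered in Eoulsan, mapped with STAR 2.4.0k, stripped of alignments to several positions and counted with HTSeq-count 0.5.3 on Ensembl 81. Libraries were made with a strand-specific kit, but the strand setting of the counting was not given in the sources used here.

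Genotypes and replicate numbers were taken from the labels. Counts were tested with edgeR 4.0.16 in R 4.3.3: filterByExpr with a minimum count of 10, TMM, 1 quasi-likelihood fit of all 9 embryos, and Benjamini-Hochberg adjustment over the 16368 genes tested, called at 0.05. The standard error was obtained from the F statistic and intervals cover 95%. With 3 embryos a group, precision is limited by their number. Normalized counts were counts divided by size factors of DESeq2 1.42.0. Symbols came from GENCODE M21, in which 44048 of 44886 identifiers were found.

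The members and lists were chosen with earlier results of these data known. Named genes were the members, pathway genes called or with the lowest adjusted p in their list, and the 3 genes most correlated with each member. Alternatives were DESeq2's test, its size factors, no filter or a minimum of 50, the 6 embryos of a comparison, the embryo code as covariate or stratum, a replicate block and each embryo left out. The fit was also run on counts simulated with the same dispersion for every gene and no outlying library. That run does not measure power or error rate in these data. Replicate numbers did not pair embryos, with r of deviations between -0.22 and 0.17 for the same number.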

Additional observations from a re-analysis of the deposited data

How the results depend on the processing

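For the members, 2 of 400 log2 fold changes under alternatives were called, both of Cnr1 in Dlx5/6::Cre mutants, 381 stayed within 1 standard error and 17 moved further. The number of members called in Dlx5/6::Cre mutants was 0 and became 1 with DESeq2 and without the low-count filter. In the other comparisons it was 0 under all alternatives run. Of the further pathway genes, 1 was called in each comparison with the controls, and 3 in each with DESeq2 and without the filter, where Grm5 and Gnai1 joined Chrm3. In Islet1Cre mutants it was 1 to 2 with single embryos left out and 2 within the code IE. The corresponding numbers in Dlx5/6::Cre mutants were 1 to 3 with single embryos left out and 0 within the code D. Over all genes, the 159 called in Islet1Cre mutants became 395 with DESeq2, 311 without the filter, 259 with 6 embryos, 61 with the code as covariate and 15 to 397 with single embryos left out. The 392 called in Dlx5/6::Cre mutants became 860, 708, 181, 32 and 143 to 613 in the same order, and 2 within the code D. Between the mutants 0 became 18, 13, 2, 1 and 0 to 4. The replicate block gave 143, 363 and 0 calls over all genes and changed no call of a member. The cause of these shifts was not tested, except that fewer embryos enter some fits. With 3 embryos a group, changes of Napepld within its intervals, and of the receptors with few reads, could be missed.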
